A study of Mus musculus with 2 samples.

Results

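The replication-dependent clustered histone genes are the genes whose symbols begin with Hist1h, Hist2h, Hist3h or Hist4h in the mouse annotation GENCODE M21. Of 70 such genes in the annotation, 67 were matched by identifier to the deposited gene tables, out of 42462 matched genes in all. The other 3 (Hist2h2bb, Hist1h2bm and Hist1h2bh) were not analysed here. The 67 genes were 6 of class H1, 20 of H2A, 16 of H2B, 12 of H3 and 13 of H4. By cluster, 54 lay in Hist1, 9 in Hist2, 3 in Hist3 and 1 in Hist4, and 64 were annotated as protein-coding and 3 as pseudogenes.

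These genes encode the core histones H2A, H2B, H3 and H4, around which DNA is wound, and the linker histone H1, which binds DNA where it enters and leaves the core. Their transcription and the stability of their mRNA are tied to S phase, when new DNA has to be packaged. Their mRNAs are known to end in a conserved stem-loop in place of a poly(A) tail, and the stem-loop binding protein SLBP holds that structure. Adult haematopoietic stem cells (HSC), which give rise to all blood cells, are known to be mostly out of the cell cycle.

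Total RNA of HSC from adult male C57BL/6J mice aged 5 to 6 weeks was sequenced in 2 biological replicates, the only group. ScriptSeq libraries were prepared from 100 ng of RNA each once ribosomal RNA had been removed, a method that needs no poly(A) tail. The labels give the replicates separate biosamples and the same donor entry, so differences between them may be technical. With 1 group, levels and replicate differences are described without a test.

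The tables held 27901074 expected counts in replicate 1 and 48490188 in replicate 2. A gene at 3 counts, the limit that a count of 0 allows, is at 0.108 CPM (counts per 1000000 counts) in replicate 1 and 0.0619 CPM in replicate 2, for counting error only. Of 10 markers of HSC and progenitors, 10 were at 1 TPM (transcripts per 1000000, corrected for length) or more in both libraries. So were 10 of 10 neutrophil markers, whose summed TPM was 3184 in replicate 1 and 1214 in replicate 2. The same held for 5 of 10 erythroid markers, whose summed TPM was 104 in replicate 1 and 230 in replicate 2. Over all protein-coding genes the share at that level was 44.0%. Of 6 B cell markers 1 was detected, Cd79b at 4.89 and 3.25 TPM, and Pax5 had 0 counts. Of 5 T cell markers 2 were detected, Lck at 5.87 and 5.55 TPM and Cd3g at 1.49 and 1.59 TPM, and Trac had 0 counts. The part of other cell types in the histone levels was not tested. In bulk RNA fewer cells of a type and less RNA per cell cannot be told apart.

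The stem-loop that defines this class of mRNA was sought only in the form GG-YYY-TTTT-N-A-RRR-CC. Y is C or T, R is A or G and N is any base, and other forms were not counted. In that form the stem-loop was present in an annotated transcript of 42 of the 67 genes, 38 of them detected at 1 TPM or more in both libraries. It lay 21 to 58 bases after the stop codon, with a median of 31.5. Among 42 genes, 6 distinct 16-base sequences occurred. The 6 are shown with the gene that carries each, chosen for its level or for its stem-loop, because the stem distinguished the classes. Capitals mark the stem-loop, read 5′ to 3′ as DNA from the GENCODE M21 transcripts (GRCm38), and lower case marks flanking bases.
Hist2h2aa1: aaaaaGGCTCTTTTCAGAGCCacccac
Hist1h2bb: ccaaaGGCTCTTTTAAGAGCCacccac
Hist2h2ac: aaaaaGGCTCTTTTTAGAGCCaccaaa
Hist1h4d: ccaaaGGCCCTTTTCAGGGCCactacc
Hist2h4: ctaacGGCCCTTTTTAGGGCCaaccac
Hist1h4b: caaaaGGTCCTTTTCAGGACCactcac

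The stem-loop of Hist1h4d is at chr13:23581950-23581965 on the plus strand, that of Hist1h2bb at chr13:23747203-23747218 on the plus strand and that of Hist2h2aa1 at chr3:96246032-96246047 on the plus strand. Those of Hist2h2ac and Hist2h4 are on the minus strand, at chr3:96220418-96220433 and chr3:96262939-96262954. That of Hist1h4b is at chr13:23757366-23757381 on the plus strand.

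All 31 stem-loops outside class H4 began with GGCTC, while the 11 in H4 began with GGCCC in 9 genes and with GGTCC in 2. Thus no stem was shared between H4 and the other classes in these 42 genes. The annotated model of 20 of the 42 ended within 60 bases after the stem-loop, and that of 22 ran further. In 25 genes no annotated transcript held a stem-loop of the form sought. Of these, 14 had 30 or fewer bases after the stop codon in every annotated transcript, a stretch shorter than any that held the stem-loop in the other genes. Most members have no intron: 62 had 1 exon in every annotated transcript.

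Clustered histone RNA was abundant in these HSC libraries. Of 67 genes, 58 (86.6%) were at 1 TPM or more in both libraries, against 44.0% of 21474 protein-coding genes. At 10 TPM the share was 74.6% of the clustered genes against 12.8% of protein-coding genes, and at 100 TPM it was 25.4%, 17 genes, against 0.922%. The median clustered gene had 54.0 TPM in replicate 1 and 48.5 TPM in replicate 2, against 0.51 and 0.53 TPM over all protein-coding genes. The clustered genes together held 0.671% of all TPM in replicate 1 and 0.721% in replicate 2, 0.696% ± 0.0354 (SD, n = 2). The 64 protein-coding members held 4.11% of the TPM of protein-coding genes in replicate 1 and 3.55% in replicate 2.

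The 17 genes at 100 TPM or more in both libraries were 6 of H4, 6 of H2A, 4 of H2B and 1 of H1, with none of H3. The 10 highest genes held 50.6% of the clustered TPM in replicate 1 and 52.8% in replicate 2. Clustered TPM, which is per length, was thus spread unevenly over the genes.

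The genes just above 1 TPM in both libraries were Hist2h2be, with 1.94 and 2.98 TPM in replicates 1 and 2, and Hist4h4, with 5.21 and 2.92 TPM. Just below lay Hist1h2bq, an H2B gene with 1.39 TPM in replicate 1 and 0.19 in replicate 2, and Hist1h2al, a processed pseudogene with 1.13 and 0.30 TPM. Next below was Hist3h2ba, with 0.66 and 0.42 TPM. Hist2h3c1 and Hist1h2ao and the pseudogene Hist1h2aj were at 0 in 1 library and at 0.12 to 0.62 TPM in the other. In coding sequence Hist1h2ao is 100% identical to Hist1h2ap, and Hist1h2bq to Hist1h2br. The deposited SD of the count was 111% and 67.4% of its posterior mean for Hist1h2ao in replicates 1 and 2. It was 63.5% and 110% for Hist2h3c1, and 8.04% and 22.5% for Hist1h2bq. These low values thus depend on how shared reads were assigned. All 3 members with no count in either library were testis-type histone genes: Hist1h1t (H1), Hist1h2ba (H2B) and Hist1h2aa (H2A), which are known for expression in male germ cells.

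**Figure D1:**
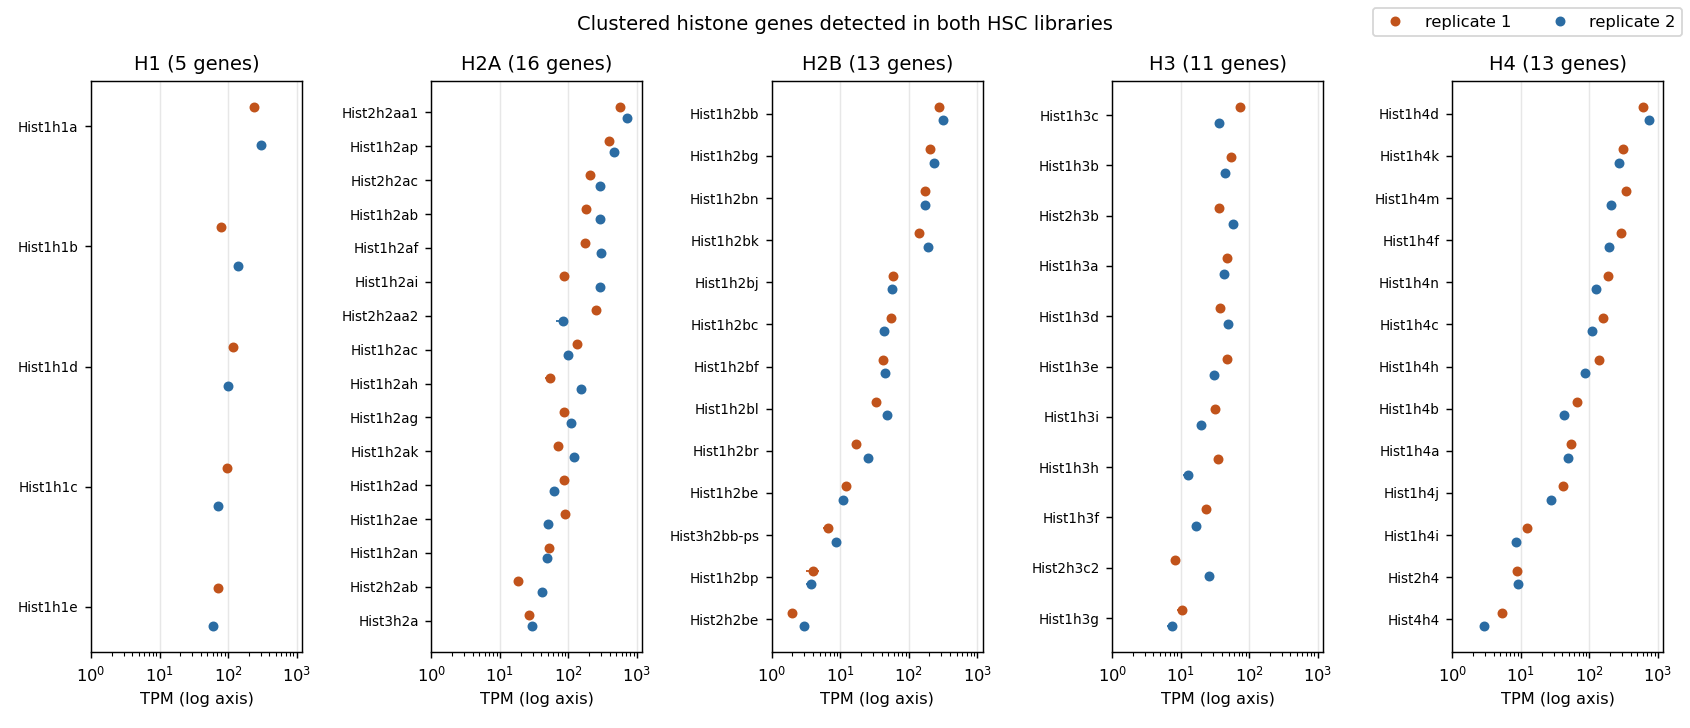
TPM (log axis) of the 58 clustered histone genes at 1 TPM or more in both libraries, by class, with 1 point per library and the deposited bounds as lines. H4 and H2A genes reach the highest levels, with Hist1h4d at 603 TPM in replicate 1 and 749 TPM in replicate 2, while no H3 gene passes 100 TPM.

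Per length, H2A RNA was the largest class, with H4 next. H2A held 36.7% of the clustered TPM in replicate 1 and 43.7% in replicate 2, and H4 held 33.0% and 26.0%. H2B held 15.3% and 16.1%, H1 8.97% and 9.40%, and H3 6.04% and 4.79%. This order of the 5 classes was the same in both libraries.

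H4 and H3 enter the nucleosome as a pair, as do H2A and H2B. Summed TPM of H4 genes was 2213 in replicate 1 and 1874 in replicate 2, and that of H3 genes was 405 and 345, so that H4 exceeded H3 5.46-fold and 5.43-fold. In expected counts, which are not divided by length, the excess was 3.16-fold in replicate 1 and 2.62-fold in replicate 2. H2A exceeded H2B 2.40-fold in replicate 1 and 2.72-fold in replicate 2 in TPM. The 3 annotated genes not analysed here are all H2B genes, so the H2B sum lacks them.

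The share of H1 was larger in counts, at 18.0% and 18.9% of clustered counts, and its quantified models ran from 642 to 1560 nucleotides. H4 took 23.0% of clustered counts in replicate 1 and 16.8% in replicate 2. H2A led in counts as well as in TPM.

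**Figure D2:**
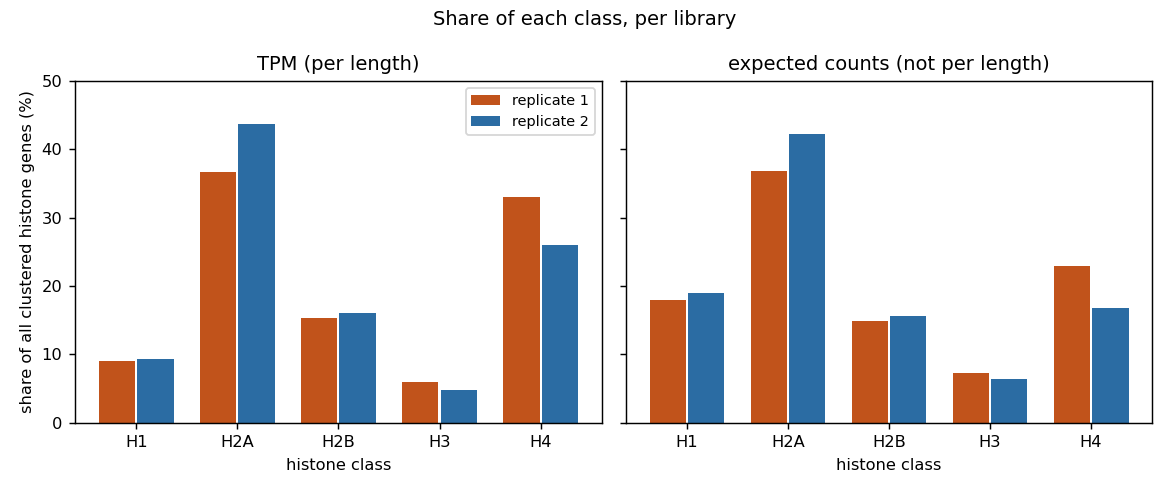
Share of each class in the clustered histone genes (percent), in TPM on the left and in expected counts on the right, with 1 bar per library. H2A is highest in both units in both libraries; H4 stands at 33.0% and 26.0% of TPM but 23.0% and 16.8% of counts, and H1 at 8.97% and 9.40% of TPM but 18.0% and 18.9% of counts.

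Among the linker histones, Hist1h1a was highest, with 235 TPM in replicate 1 and 307 TPM in replicate 2. Hist1h1b had 78.8 and 141 TPM, Hist1h1d 119 and 98.8, Hist1h1c 96.7 and 70.6, and Hist1h1e 72.1 and 60.6. In TPM Hist1h1a stood above every other H1 gene in both libraries, and Hist1h1b changed rank between them. In expected counts Hist1h1c was above Hist1h1a in replicate 1, at 11426 against 9146, and below it in replicate 2, at 12057 against 15851. A pair of genes of a class was called ordered where the deposited bounds, the interval the authors give around a TPM, did not overlap and the direction was the same in both libraries. Of 10 H1 pairs, 8 were ordered. The deposited TPM itself lay outside its bounds for 5 of the 67 genes in replicate 1 and 4 in replicate 2, each of them at 0 TPM.

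Hist2h2aa1 led class H2A, with 563 TPM in replicate 1 and 720 TPM in replicate 2. Hist1h2ap had 385 and 465 TPM, Hist2h2ac 208 and 291, and Hist1h2ab 183 and 290. The leading gene was above the second in both libraries with bounds apart. Of 120 H2A pairs, 85 were ordered, but only 3 of the 15 neighbours in the order of mean TPM were.

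In class H2B, Hist1h2bb led with 278 TPM in replicate 1 and 317 in replicate 2. Hist1h2bg had 203 and 231 TPM, Hist1h2bn 171 and 172, and Hist1h2bk 141 and 193. The first 2 were ordered, and 73 of 78 pairs in the class were ordered, 8 of 12 neighbours among them.

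Class H3 had no leader shared by the libraries. Hist1h3c had 72.8 TPM in replicate 1 and 36.8 in replicate 2, Hist1h3b 55.2 and 44.5, Hist2h3b 35.95 and 58.4, and Hist1h3a 47.4 and 42.3. Hist1h3c led in replicate 1 and Hist2h3b in replicate 2, and 32 of 55 pairs were ordered, with 1 of 10 neighbours.

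All 13 H4 genes were detected. Hist1h4d had 603 TPM in replicate 1 and 749 TPM in replicate 2, from 10531 and 15101 expected counts. Hist1h4k had 308 and 269 TPM, Hist1h4m 344 and 205, and Hist1h4f 288 and 193. Hist1h4d exceeded Hist1h4k 1.96-fold in replicate 1 and 2.79-fold in replicate 2. Of 78 H4 pairs, 74 were ordered, 8 of 12 neighbours among them. Over all classes 272 of 341 pairs and 23 of 53 neighbours were ordered.

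The H4 genes encode the same product. Translated from the annotated coding sequences, the 13 H4 genes gave 1 protein, and their coding sequences were a median of 96.8% identical to that of the nearest other H4 gene, with Hist1h4m and Hist1h4n at 100%. The 64 protein-coding members gave 27 distinct proteins: 6 for H1, 9 for H2A, 8 for H2B, 3 for H3 and 1 for H4. Hist1h4d, which stood highest, was 94.2% identical to its nearest relative in coding sequence.

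In class H3, 7 genes encoding 1 protein summed to 281 TPM in replicate 1 and 262 TPM in replicate 2. Another 4 genes (Hist1h3a, Hist1h3g, Hist1h3h and Hist1h3i) encoding a second protein summed to 124 and 83.0 TPM. The group of 7 was higher in both libraries. Hist2h3c1, annotated with a longer protein, had 0.62 TPM in replicate 1 and 0 in replicate 2.

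In class H2A, 9 genes encoding 1 protein summed to 1100 TPM in replicate 1 and 1418 in replicate 2. Hist2h2aa1 and Hist2h2aa2, which encode another and have the same coding sequence, summed to 812 and 803 TPM. In H2B, 6 genes with 1 protein summed to 324 and 347 TPM, against 278 and 317 TPM for Hist1h2bb alone.

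Most clustered TPM came from the Hist1 cluster, which also has 54 of the 67 genes. The Hist1 cluster on chromosome 13 held 83.1% of the clustered TPM in replicate 1 and 82.3% in replicate 2, and the Hist2 cluster on chromosome 3 held 16.3% and 17.1%. Hist3, on chromosome 11, held 0.50% and 0.54%, and the single Hist4 gene, Hist4h4 on chromosome 6, held 0.078% and 0.041%. In expected counts, not divided by length, Hist1 held 77.6% and 75.1% of the clustered total. There Hist3 held 2.48% and 3.06% and Hist4 0.650% and 0.398%. Within Hist1, 28 genes between Hist1h4h and Hist1h1a (chr13:23531050-23764406, GRCm38) held 50.3% and 47.7% of the clustered TPM. Another 18 genes between Hist1h2bl and Hist1h2br (chr13:21715763-21837530) held 27.5% and 27.4%, and 5 genes at chr13:22035164-22043676 held 5.23% and 7.20%. The pair Hist1h2ba and Hist1h2aa, at chr13:23933773-23934851, had no counts.

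The Hist2 cluster was carried by H2A. Its 4 H2A genes summed to 1039 TPM in replicate 1 and 1134 TPM in replicate 2, of which Hist2h2ab, at 18.5 and 40.8 TPM, was a small part. Outside H2A, Hist2h3b had 35.95 and 58.4 TPM, Hist2h2be 1.94 and 2.98 TPM, and Hist2h4 had 8.64 and 9.13 TPM and Hist2h3c2 had 8.27 and 25.6 TPM. In Hist3, Hist3h2a had 26.3 and 29.9 TPM and the pseudogene Hist3h2bb-ps 6.65 and 8.76 TPM.

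H2A and H2B genes often lie back to back on opposite strands with a shared promoter region. There were 13 such pairs, with starts 173 to 306 bases apart, and in 11 both genes were detected. The H2A gene was above its H2B partner in 8 pairs and below it in 3, with bounds apart in both libraries each time.

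In TPM, Hist2h2ac and Hist2h2be differed most: Hist2h2ac had 208 TPM in replicate 1 and 291 in replicate 2, and Hist2h2be had 1.94 and 2.98 TPM. Hist1h2ap, at 385 and 465 TPM, stood over Hist1h2br at 16.7 and 25.5 TPM. In the opposite direction, Hist1h2ae had 88.5 and 50.7 TPM against 203 and 231 TPM for Hist1h2bg. Across the 11 pairs, which share a library and differ in model length, Pearson's r of log2 TPM between partners was -0.11 in replicate 1 and 0.01 in replicate 2. The 11 pairs, with the pseudogene Hist3h2bb-ps in them, are too few to tell whether partner levels run together. Hist2h2be and Hist1h2br were quantified on models of 2620 and 1256 nucleotides, against 520 and 482 for their partners. In expected counts, not divided by length, the H2A gene was also above in 8 pairs and below in 3. There Hist2h2ac exceeded Hist2h2be 14.5-fold in replicate 1 and 11.4-fold in replicate 2, and the widest gap was that of Hist3h2a over Hist3h2bb-ps, 28.2-fold and 29.0-fold.

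**Figure D3:**
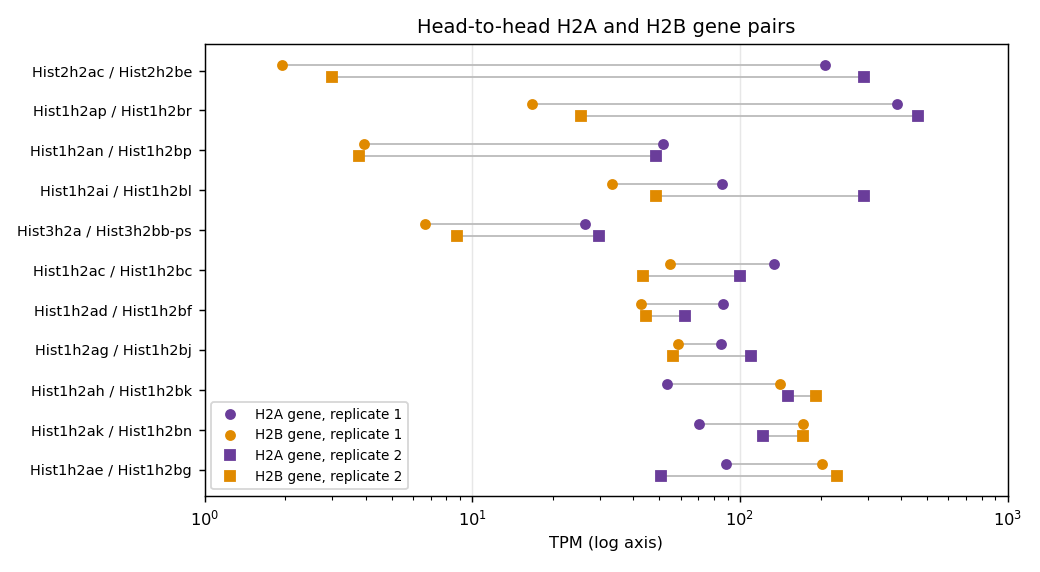
TPM (log axis) of the H2A and the H2B gene of 11 head-to-head pairs, circles for replicate 1 and squares for replicate 2, with a line joining partners. The H2A gene is higher in 8 pairs and the H2B gene in 3, and the widest gap in TPM is that of Hist2h2ac over Hist2h2be, 107-fold in replicate 1 and 97.6-fold in replicate 2 (14.5-fold and 11.4-fold in counts).

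Promoters were read from RefSeq (GRCm38.p6) for 59 of the 67 genes, in 60 windows from 250 bases before to 50 after the start. On either strand, the letters CCAAT occurred in 51 of 60 windows (85.0%), against 37.4% of 32851 promoters in the table. TATAAA occurred in 58.3% against 13.6%, and the octamer ATTTGCAT, the sequence that POU factors such as Oct1 read, in 20.0% against 1.74%. Windows of a head-to-head pair overlap and are not independent.

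The classes differed in these letters. CCAAT was in every window of H1 (6), H2A (18), H2B (14) and H3 (10), and in 3 of 12 windows of H4. The octamer was found in 7 H2A and 5 H2B windows and in none of H1, H3 or H4. TATAAA was spread over all classes, from 4 of 10 H3 windows to 8 of 12 H4 windows.

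The 150 bases before the start are shown for the leading H2B gene and for the 2 H4 genes of highest mean TPM. Hist1h2bb holds all 3 motifs, Hist1h4d has CCAAT on the reverse strand (ATTGG) and Hist1h4k has no CCAAT. Capitals mark motifs.
Hist1h2bb: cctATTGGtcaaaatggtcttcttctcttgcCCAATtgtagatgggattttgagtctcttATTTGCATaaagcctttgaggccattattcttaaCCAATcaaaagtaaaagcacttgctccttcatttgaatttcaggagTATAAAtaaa
Hist1h4d: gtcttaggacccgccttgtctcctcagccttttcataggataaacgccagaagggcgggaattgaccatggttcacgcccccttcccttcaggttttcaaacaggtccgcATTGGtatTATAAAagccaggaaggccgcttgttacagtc
Hist1h4k: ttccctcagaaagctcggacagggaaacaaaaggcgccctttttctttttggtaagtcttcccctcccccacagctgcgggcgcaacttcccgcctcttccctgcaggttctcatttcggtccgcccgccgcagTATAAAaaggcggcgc

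The stretch of Hist1h2bb is chr13:23746584-23746733 on the plus strand, that of Hist1h4d chr13:23581418-23581567 on the plus strand and that of Hist1h4k chr13:21750554-21750703 on the minus strand. A match of letters says nothing of binding in these cells.

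The replicates gave nearly the same order of genes. Across the 58 detected genes, which share their library and model lengths, Pearson's r of log2 TPM between replicates was 0.933 and Spearman's rho 0.919. The replicates were called apart for a gene whose mean was 1 TPM or more, whose TPM (with 0.1 added) differed over 2-fold and whose bounds did not overlap. Of 58 clustered genes, 6 (10.3%) were apart, against 11.5% of all matched genes, 8.61% of protein-coding genes and 20.8% of protein-coding genes of 300 to 700 nucleotides. The share of clustered genes apart was near that of all genes. The 58 include 16 on models over 700 nucleotides, so the short genes are not a like set. Each of these comparison sets also includes clustered genes.

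Of the 6, 2 were higher in replicate 1, where the share was 4.18% of all matched genes and 7.31% of the short protein-coding genes. Hist2h2aa2 had 250 TPM in replicate 1 and 83.2 in replicate 2, and Hist1h3h had 34.7 and 13.01 TPM. The sum of Hist2h2aa2 and its identical copy Hist2h2aa1 was nearly equal in the libraries, at 812 and 803 TPM.

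The other 4 were higher in replicate 2, where the share was 7.36% of all matched genes and 13.5% of the short ones. Hist1h2ai had 85.9 TPM in replicate 1 and 292 in replicate 2, Hist1h2ah 53.6 and 152, Hist2h3c2 8.27 and 25.6, and Hist2h2ab 18.5 and 40.8. Hist1h2ai and Hist2h3c2 have a relative over 98% identical in coding sequence, and Hist1h2ah has one at 97.96%. Hist2h2ab is 88.5% identical to its nearest relative.

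Near-identical copies carried more assignment error. For 36 detected genes with a coding sequence at least 98% identical to another, the posterior SD of the count, as deposited, was a median of 1.32% of the count in replicate 1 and 0.980% in replicate 2. For the 21 others it was 0.0943% and 0.0987%. Of the 36 genes 4 were apart between replicates, and of the 21 others 2 were.

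The classes differed in their ratios between libraries. The median log2 TPM ratio of replicate 1 over replicate 2 was 0.57 for H4, with 11 of 13 genes above 0, and 0.44 for H3, with 8 of 11 above 0. It was 0.25 for H1 (3 of 5 above 0), -0.19 for H2B (4 of 13 above 0) and -0.36 for H2A (5 of 16 above 0). Protein-coding genes had a median of -0.29 and 25.8% above 0, those of 300 to 700 nucleotides a median of -0.18, and all matched genes one of -0.27. Relative to the protein-coding median the classes stood at 0.86 for H4, 0.73 for H3, 0.54 for H1, 0.10 for H2B and -0.07 for H2A, a subtraction of 1 constant that leaves their order as it was and puts H2B above 0. In CPM all matched genes had a median of -0.03 and protein-coding genes of 300 to 700 nucleotides one of 0.25. The class medians in CPM were 1.07 for H4, 0.77 for H3, 0.60 for H1, 0.30 for H2B and 0.06 for H2A. H2B and H2A were thus above 0 there, with H2B near the short genes and H2A below them. H4 stood highest and H2A lowest in TPM and in CPM. Hist1h4d ran against its class in TPM, with a ratio of -0.31, and was at 0.28 in CPM.

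The libraries also differed in fragment size, with size ranges of 172 to 1452 nucleotides in replicate 1 and 232 to 1000 in replicate 2 per the labels. Of 10 tested neutrophil markers, 7 were apart and higher in replicate 1, against 4.18% of all matched genes. Of 8 tested erythroid markers, 5 were apart and higher in replicate 2, against 7.36% of all matched genes. The part of fragment size and of these markers in the class ratios was not tested.

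**Figure D4:**
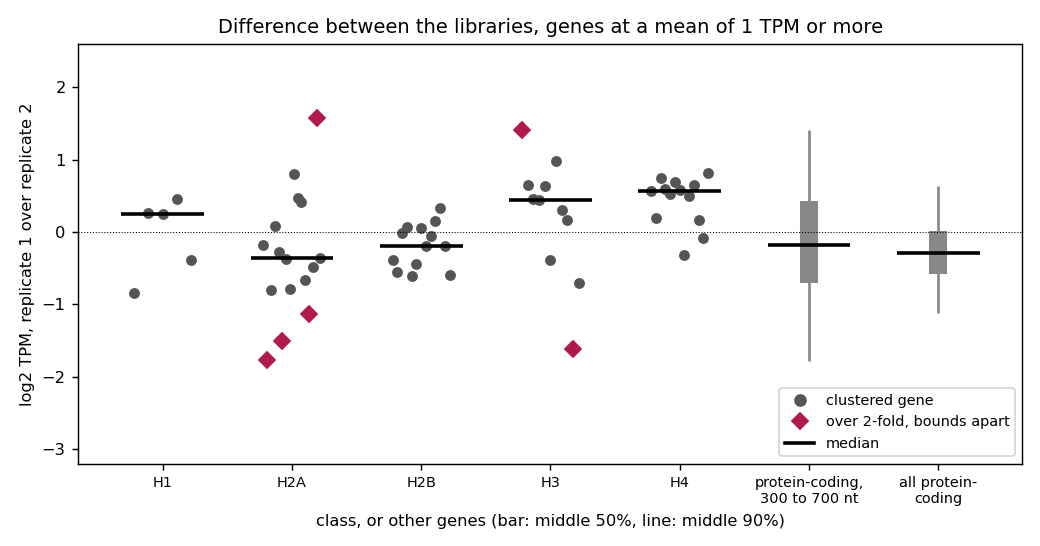
Log2 TPM ratio of replicate 1 over replicate 2 for each clustered gene at a mean of 1 TPM or more, by class. Diamonds mark the 6 genes over 2-fold with bounds apart, and a black line marks each median. Grey bars and lines show the middle 50% and 90% of protein-coding genes, in which clustered genes are included. H4 genes gather above 0, at a median of 0.57 (1.07 in CPM), and H2A genes mostly below in TPM, at a median of -0.36 (0.06 in CPM).

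Gene models bear on these levels. The quantified models ran from 312 to 2879 nucleotides. Stem-loops were read from GENCODE M21 models, and for 18 members the longest M21 model was over 50 bases longer than the quantified one. Hist1h4d was quantified on 393 nucleotides, against 1138 in M21. How the longer models would change TPM was not tested. TPM divides by the effective length, which is the model length corrected for the spread of fragment lengths. For Hist1h4k, the shortest, it was 125 bases in replicate 1 and 85.2 in replicate 2. Among the 64 genes with a count, median TPM was 19.9 (replicate 1) and 25.5 (replicate 2) for the 18 with models over 700 nucleotides, against 78.9 and 72.9 for the 46 with shorter models. Median counts were closer, at 1786 and 2460 against 1949 and 2207. The place of the reads along a model was not analysed here.

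Only 4 members had more than 1 quantified transcript. In Hist1h2be, 1 transcript held 88.7% of the gene's TPM in replicate 1 and 94.2% in replicate 2. In Hist1h2bp the longer transcript held 54.2% and 83.2%.

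The replication-independent variants, which are made also outside S phase and mostly from mRNAs with poly(A) tails, set a scale. Clustered H1 genes summed to 602 TPM in replicate 1 and 678 in replicate 2, against 11.4 and 13.9 TPM for the H1 variant genes, a log2 ratio of 5.66 ± 0.08 (SD, n = 2) in TPM and 3.87 ± 0.25 in counts. Among these variants H1f0, the linker histone of differentiated and resting cells, had 10.9 and 13.8 TPM. Clustered H2A genes summed to 2463 and 3154 TPM against 478 and 707 TPM for the H2A variants, a log2 ratio of 2.26 ± 0.15 in TPM and 0.47 ± 0.28 in counts. Of these H2afy, which encodes macroH2A, had 297 and 411 TPM, and H2afz, which encodes H2A.Z, had 129 and 235 TPM.

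Class H3 went the other way. Clustered H3 genes summed to 405 TPM in replicate 1 and 345 TPM in replicate 2, against 478 and 688 TPM for the variants, a log2 ratio of -0.62 ± 0.53 in TPM and -2.13 ± 0.50 in counts. H3f3a and H3f3b, which encode the H3.3 that is laid down outside replication, had 284 and 472 TPM and 183 and 204 TPM. Cenpa, the centromeric H3, had 11.3 and 12.3 TPM. Over all classes 9 of 14 variant genes were detected.

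**Figure D5:**
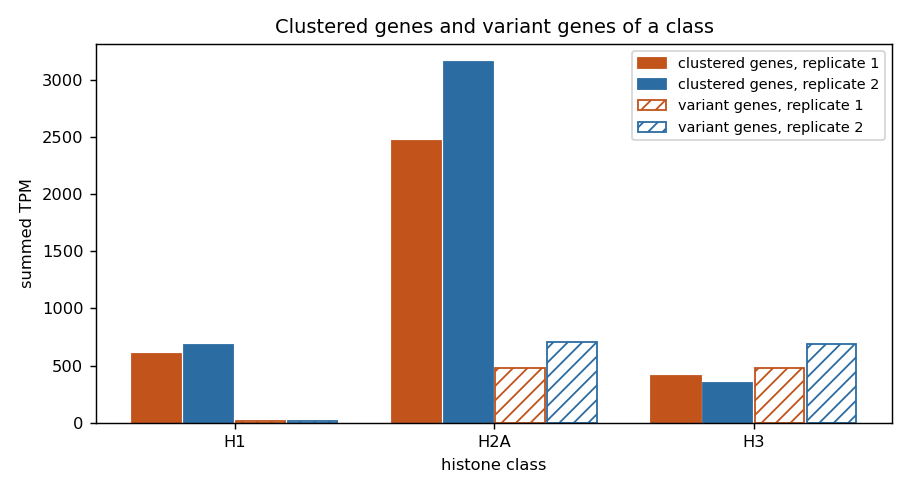
Summed TPM of clustered genes (filled) and variant genes (hatched) of classes H1, H2A and H3 in each library. Clustered genes exceed variants in H1 and H2A, and variants exceed clustered genes in H3, at 478 and 688 TPM against 405 and 345 TPM.

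Most of the listed genes of histone mRNA processing were detected, but not all. Of 13 genes of histone pre-mRNA processing 10 were detected, against 44.0% of protein-coding genes. Among them was Slbp, the stem-loop binding protein, with 35.9 TPM in replicate 1 and 44.7 in replicate 2. Those not detected were Lsm11, Rnu7 and Zfp473, the last with 0.62 and 0.71 TPM. Casp8ap2, a histone locus body protein, had 10.1 and 13.7 TPM. Lsm11, of the U7 particle that directs the cut after the stem-loop, had 0.74 and 0.87 TPM, and Rnu7, its RNA, had 0 counts on a model of 62 nucleotides, shorter than the fragments sequenced.

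All 8 genes of histone gene transcription were detected. Npat, the coactivator of histone genes that cyclin E and CDK2 phosphorylate, had 4.5 TPM in replicate 1 and 7.76 in replicate 2. Hinfp, which binds H4 promoters, had 2.54 and 1.82 TPM, and Pou2f1, which encodes Oct1, had 3.91 and 4.65 TPM. Ccne2, a cyclin E gene, had 5.48 and 14.8 TPM.

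All 21 histone chaperone genes were detected, at a median level (TPM) of 20.5 in replicate 1 and 30.9 in replicate 2. Nasp, a chaperone of H3 and H4, had 47.2 and 77.6 TPM, and Chaf1a and Chaf1b, of the complex that deposits H3 and H4 behind the replication fork, had 5.77 and 9.49 TPM and 11.8 and 16.4 TPM. All 18 DNA replication genes were detected as well, with a median of 17.6 and 26.4 TPM. Pcna, the sliding clamp, had 104 and 135 TPM, and Mcm6, of the replicative helicase, had 59.3 and 81.9 TPM. The clustered histone genes had a median log2 TPM ratio of replicate 1 over replicate 2 of 0.08, and the 18 replication genes one of -0.51, with 17 of 18 below 0. Relative to the protein-coding median these were 0.37 and -0.22.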

How the data were processed

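Total RNA of 2 HSC libraries was analysed from 1 gene table and 1 transcript table each. The authors deposited, per the file headers, expected counts (read counts estimated by splitting shared reads), TPM, FPKM, posterior means and SDs. They also deposited bounds around each TPM, a score with no stated level. The transcript tables also hold the deposited percent of a gene's TPM in each transcript. FPKM was not used. Sample text files name mm10 and GENCODE M4 as build and annotation. The aligner, the counter and the strand setting were not given in the sources used.

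Symbols, classes, positions, transcripts and coding sequences came from GENCODE M21 (GRCm38), and promoters from RefSeq (GRCm38.p6). No protein table and no genome were used: proteins were translated from coding sequences with Biopython 1.88, identity came from edlib 1.3.9.post1, and stem-loops were sought in annotated transcripts only. Numbers were computed with Python 3.11.15, pandas 2.3.3 and numpy 2.4.6. Effective lengths imply mean fragments of 192 nucleotides (replicate 1) and 244 (replicate 2). Totals per library were 27901074 and 48490188 expected counts.

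With 2 libraries of 1 group no test was made. The rule for genes apart was run on simulated counts in which genes shared no reads, so assignment error between near-identical copies was not covered. Members, lists and rules were chosen with earlier results of these data known, and the divisions at 98% identity, 700 nucleotides and 60 and 30 bases after the values were seen. Named genes were the 4 highest of each class, all H1, Hist2, Hist3 and Hist4 genes, genes near 1 TPM, testis-type genes, genes apart between replicates, genes with several transcripts, pair members and genes of the other lists. Hist1h4b, Hist1h3g, Hist1h3i and Hist1h2aj were named after their values were seen. Alternatives changed the unit, the detection level, the pseudocount, the fold or the library left out.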

Additional observations from a re-analysis of the deposited data

How the results depend on the processing

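The unit moved the shares most. In expected counts the clustered genes held 0.591% of the total, and their summed TPM was 3.84% of that of protein-coding genes. In counts the class shares were 18.5% for H1, 6.84% for H3 and 19.9% for H4, and the cluster shares were 76.4% for Hist1, 20.3% for Hist2, 2.77% for Hist3 and 0.524% for Hist4. The log2 ratios of clustered over variant genes in counts were 3.87 for H1, 0.47 for H2A and -2.13 for H3. With a 1.5-fold limit 22 genes were apart between replicates, and in CPM without bounds 14 were. The share of all genes apart under these changed rules was not computed, so these counts have no background. The median log2 ratio between replicates was 0.58 in CPM, 0.0698 with a pseudocount of 1, 0.0637 with posterior mean TPM and 0.12 over all members with a count. Of these values only the log2 ratios can change sign, and none of those listed here did. The class medians between replicates did so for H2A, from -0.36 in TPM to 0.06 in CPM, and for H2B, from -0.19 to 0.30.

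Leaving out either library gave 58 to 60 detected genes, 0.671% to 0.721% of all TPM, 324 to 325 ordered pairs and, for H3 over its variants, a log2 ratio of -0.995 to -0.24. The number of genes apart and the median ratio need both libraries and have no such value. With 2 libraries, shares and ratios without 1 of them lie within the SD by construction. Of 45 alternatives that keep both, 27 stayed within the SD or within 1.5 times the count. The median ratio between replicates has no SD, so its alternatives could not be among the 27. With Hist2h2aa1 and Hist2h2aa2 summed, chosen after seeing the data, 5 were apart. No paired analysis was possible because there was 1 group. In depth, 60 members had 10 or more expected counts in both libraries.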
